A study of Mus musculus with 6 samples.

Results

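Myelin and Schwann cell genes were examined in inguinal white adipose tissue (IngWAT), the subcutaneous fat pad of the groin, by RNA sequencing of whole tissue. The set held 8 of the 34745 genes in the count tables, each found by its symbol: the myelin genes Mal, Mbp, Prx and Mag, the Schwann lineage genes Sox10, S100b and Ngfr, and the sympathetic gene Th. Libraries came from 3 mice with an adipose-specific knock-in of Slc35d3 (SAKI) and 3 control mice (WT). The SAKI mice carried a transgene of Slc35d3 behind a stop cassette flanked by loxP sites (LSL-Slc35d3), which Cre under the adiponectin promoter, active in adipocytes, removes. The WT mice, whose genotype the labels give as wild type, were described in the study's methods as carrying the Slc35d3 alleles without Cre, so Cre was present in SAKI mice only and its own effect cannot be told apart from that of Slc35d3. The transgenic lines were made on a C57BL/6 background. All 6 mice were males, and both groups ate a normal chow diet with 10 kcal% fat for 10 weeks from 6 weeks of age, so that the mice were 16 weeks old at the end. The labels record PBS perfusion for both groups. Cre was directed to Schwann cells or nerve in neither group.

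Fat is crossed by peripheral nerve. A Schwann cell either wraps 1 large axon in a myelin sheath, which lets impulses jump from node to node, or holds a bundle of thin axons without making myelin. Sympathetic axons, which reach adipocytes and blood vessels and release noradrenaline, are mostly of the thin kind without myelin, and their cell bodies lie in ganglia outside the fat pad. Mbp, Prx, Mag and Mal encode proteins of the sheath, Sox10 is the transcription factor of the whole Schwann lineage, S100b is a calcium-binding protein of Schwann cells, and Ngfr encodes the p75 neurotrophin receptor, which is kept in Schwann cells without myelin. Th encodes tyrosine hydroxylase, the rate-limiting enzyme of noradrenaline synthesis.

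Sox10 and Egr2 are the factors best known for driving myelin genes, so the 250 bases before the RefSeq start (GRCm38.p6) were searched on both strands for SOX letters (ACAAAG or ACAATG) and for EGR letters (GTGGGCG or GGGGGCG), and 6 of the 8 genes had an entry. The 3 myelin genes with an entry are shown, each on the strand of its gene, because they are the genes whose levels are set against Sox10 below. Mal lay on the minus strand (chr2:127656696-127656945), Prx on the plus strand (chr7:27499074-27499323) and Mag on the minus strand (chr7:30914864-30915113). Capitals mark the match to the SOX letters.
Mal: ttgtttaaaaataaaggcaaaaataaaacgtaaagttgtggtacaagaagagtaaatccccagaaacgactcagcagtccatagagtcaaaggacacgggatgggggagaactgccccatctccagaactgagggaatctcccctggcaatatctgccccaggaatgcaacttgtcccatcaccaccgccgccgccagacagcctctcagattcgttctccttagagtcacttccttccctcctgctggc
Prx: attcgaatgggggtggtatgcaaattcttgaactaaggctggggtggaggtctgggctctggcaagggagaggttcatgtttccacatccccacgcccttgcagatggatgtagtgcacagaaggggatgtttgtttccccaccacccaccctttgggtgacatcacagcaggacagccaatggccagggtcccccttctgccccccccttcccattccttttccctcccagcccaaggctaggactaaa
Mag: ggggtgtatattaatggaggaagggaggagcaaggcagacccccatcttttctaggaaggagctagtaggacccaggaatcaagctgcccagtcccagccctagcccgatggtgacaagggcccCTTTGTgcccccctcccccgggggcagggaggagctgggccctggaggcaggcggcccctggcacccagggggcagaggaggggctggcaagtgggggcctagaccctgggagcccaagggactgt
Mag held 1 SOX match, 126 bases before its start, read here on the opposite strand as CTTTGT. No SOX letters were found in the windows of Mal, Prx, S100b, Ngfr and Th, and no EGR letters in any of the 6. Over all 32851 RefSeq windows of this length 25.2% held SOX letters and 19.7% held EGR letters. The window of Mag ended 10 bases from the gene start in the gene annotation used for positions and was the nearest of 3 in RefSeq. That of Th ended 31133 bases from the start of the wider Th span given below.

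The libraries held 15354161 to 18787036 counts, and 15400 genes passed a filter on low counts. Slc35d3 averaged 769.6 ± 24.0 CPM in SAKI and 76.6 ± 4.79 CPM in WT (n = 3 each, SD). Its log2 fold change was 3.33 ± 0.12 (SE) with an adjusted p of 0.000244 by edgeR's quasi-likelihood test, and no library went against its label. CPM is a library-scaled count (the gene's count over the library's effective size, with the trimmed mean of M values, or TMM, factors). On the first principal component, which took 47.9% of the variance of log2 CPM, WT 2 lay at -24.4, beside the SAKI libraries at -27.8 to -21.0, while WT 1 and WT 3 lay at 40.6 and 58.1. Mitochondrial genes likewise took 13.1% to 15.9% of counts in SAKI, and in WT they took 13.8% in WT 2 against 7.31% in WT 1 and 8.78% in WT 3. Without WT 2, 16.6% of the 15693 genes then tested passed an adjusted p of 0.05, and values without it are given below for the 7 genes tested and for the other named genes whose call it changed.

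Mal had the largest fold change of the 8 genes and was the single one whose groups did not overlap. The means of Mbp, Prx and Mag were higher in SAKI, those of Sox10 and Ngfr were lower, and that of S100b was nearly equal. None of the 7 genes tested passed an adjusted p of 0.05. Th was at or below 2 counts in every library. In whole tissue fewer cells of a type and less RNA per cell cannot be told apart.

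Expressed per gene length, in the deposited FPKM (fragments per kilobase of gene and per depth), the genes spanned more than an order of magnitude. In SAKI the order was S100b with 6.58 ± 0.801 FPKM, Mal with 5.67 ± 0.839 FPKM, Mbp with 5.21 ± 0.720 FPKM, Prx with 1.99 ± 0.296 FPKM, Sox10 with 1.33 ± 0.150 FPKM, Ngfr with 0.823 ± 0.115 FPKM and Mag with 0.375 ± 0.0565 FPKM (SD, n = 3). The ranges of S100b and Mal overlapped, as did those of Mal and Mbp, and every later neighbour was separate. In WT the order was S100b with 6.70 ± 3.22 FPKM, Mbp with 4.24 ± 0.611 FPKM, Mal with 2.92 ± 0.490 FPKM, Sox10 with 1.81 ± 0.491 FPKM, Prx with 1.44 ± 0.214 FPKM, Ngfr with 1.31 ± 0.504 FPKM and Mag with 0.299 ± 0.0697 FPKM (SD, n = 3). There S100b overlapped Mbp, Sox10 overlapped Prx and Prx overlapped Ngfr, whereas Mal lay below Mbp and above Sox10 without overlap. Mal thus stood level with Mbp in SAKI and below it in WT, and Prx stood above Sox10 in SAKI and level with it in WT. S100b led both orders; it is also made by cells other than Schwann cells, adipocytes among them.

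Mal encodes a small proteolipid of compact myelin that is also found in T lymphocytes and some epithelia. It lies on the minus strand of chromosome 2 (GRCm38, chr2:127633226-127656695). Its levels were 17.3, 20.6 and 15.1 CPM in SAKI 1, 2 and 3, against 8.71, 11.0 and 7.99 CPM in WT 1, 2 and 3. The means were 17.7 ± 2.73 CPM in SAKI and 9.24 ± 1.59 CPM in WT (SD, n = 3 each). Every SAKI library was above every WT library, and WT 2 was the highest of its group. The fold change was 1.91, or 0.93 ± 0.19 on the log2 scale (SE), with an unadjusted p of 0.00159 and an adjusted p of 0.153 by edgeR's quasi-likelihood test. The exact two-sided permutation test over the 6 libraries gave p = 0.1, the smallest that 3 against 3 allow. Without WT 2 the log2 fold change was 1.08 ± 0.18 and the adjusted p 0.0147 by edgeR's quasi-likelihood test, a call that 16.6% of genes then reached. DESeq2 on all 6 libraries gave 0.93 with an adjusted p of 0.00467, where it called 4.73% of genes. The direction was kept in all 16 alternatives, over which the log2 fold change ran between 0.77 and 1.08 and the adjusted p between 0.00467 and 0.494.

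**Figure D1:**
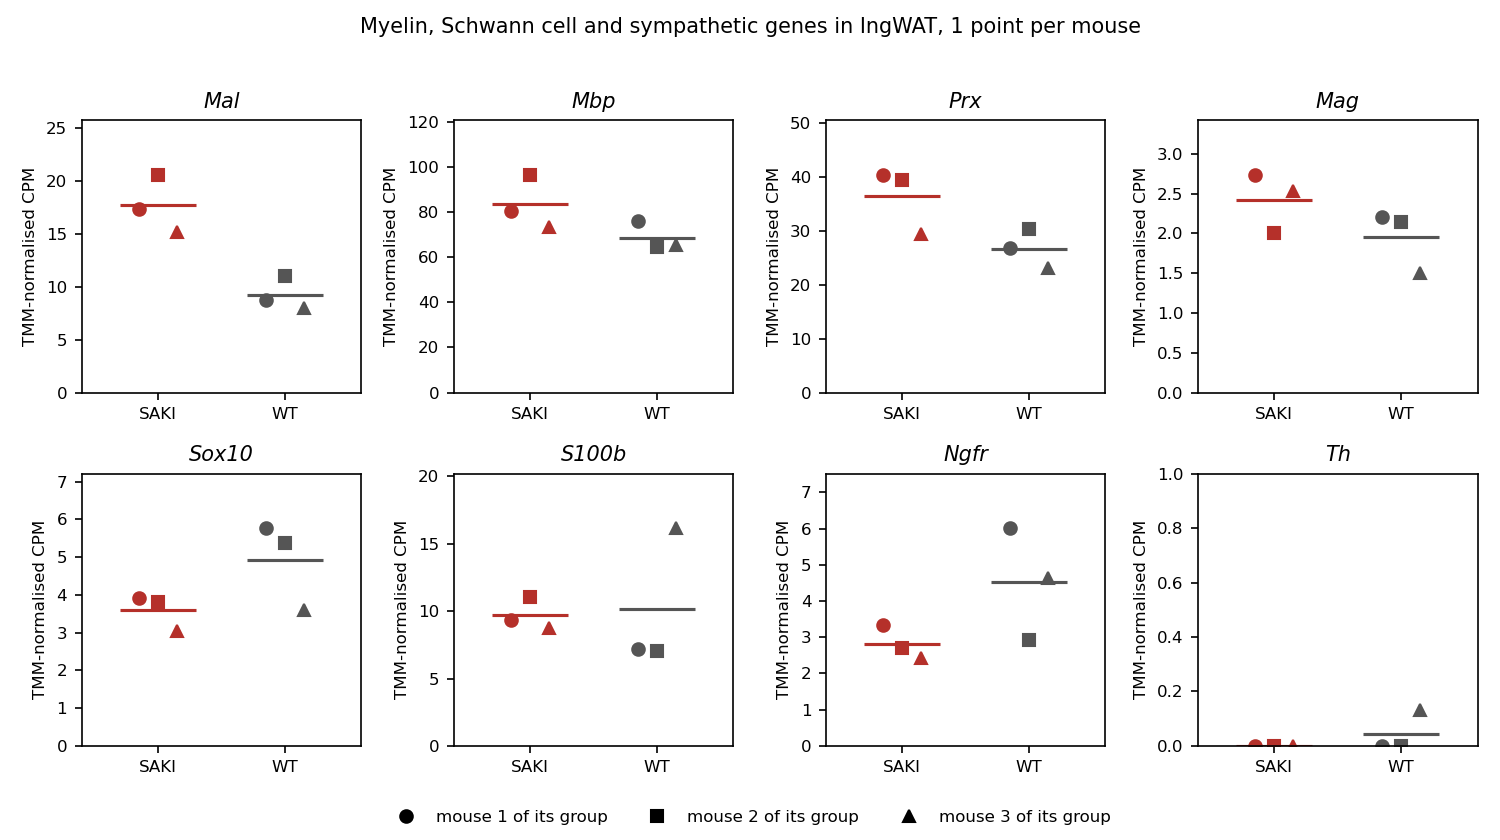
TMM-normalised CPM of the 8 genes in each library, with SAKI left of WT, marker shape for the mouse number within its group and bars for group means; axes start at 0 and differ between genes. All 3 SAKI libraries of Mal, at 15.1 to 20.6 CPM, sit above the WT libraries at 7.99 to 11.0 CPM, and the groups of the other genes overlap.

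Mbp, the myelin basic protein that holds the inner faces of the compact sheath together, lies on the plus strand of chromosome 18 (chr18:82475146-82585637). Its 16 annotated transcripts include the longer golli forms, which immune cells also make and which gene-level counts cannot separate from the myelin forms. It had 80.2, 96.5 and 73.5 CPM in SAKI 1, 2 and 3, against 75.9, 64.5 and 65.4 CPM in WT 1, 2 and 3. SAKI 2 was the highest library, but SAKI 3 lay below WT 1, so the groups overlapped. The log2 fold change was 0.28 ± 0.13 (SE) with an adjusted p of 0.313 by edgeR's quasi-likelihood test, and 0.24 ± 0.14 with an adjusted p of 0.278 without WT 2. The exact permutation test gave p = 0.2.

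Prx encodes periaxin, which links the Schwann cell membrane outside the compact sheath to the dystroglycan complex. It lies on the plus strand of chromosome 7 (chr7:27499324-27520214), and exons of an antisense gene there, Gm15541, held 34 counts over all libraries beside the 3051 of Prx. Prx had 40.3, 39.4 and 29.4 CPM in SAKI 1, 2 and 3, against 26.8, 30.2 and 23.0 CPM in WT 1, 2 and 3. SAKI 1 and SAKI 2 were above all WT libraries, and SAKI 3 lay just below WT 2. On the log2 scale the fold change was 0.45 ± 0.17 (SE), with an unadjusted p of 0.0313 and an adjusted p of 0.241 by edgeR's quasi-likelihood test. Without WT 2 it was 0.55 ± 0.17 with an adjusted p of 0.0725 in the same edgeR test.

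Mag, the myelin-associated glycoprotein of the membrane that faces the axon, was thinly covered, with 23 to 49 counts a library. It lies on the minus strand of chromosome 7 (chr7:30899176-30914873). Mag had 2.74, 2.00 and 2.53 CPM in SAKI 1, 2 and 3, against 2.21, 2.14 and 1.51 CPM in WT 1, 2 and 3. SAKI 2 lay below WT 1 and WT 2, and WT 3 was the lowest library. Its log2 fold change was 0.31 ± 0.28 (SE) with an adjusted p of 0.563 by edgeR's quasi-likelihood test, a change near its own error at this depth, and 0.39 ± 0.30 with an adjusted p of 0.412 without WT 2.

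Sox10 lies on the minus strand of chromosome 15 (chr15:79154913-79164490) and is needed by Schwann cells with and without myelin. It had 3.91, 3.82 and 3.05 CPM in SAKI 1, 2 and 3, against 5.77, 5.38 and 3.60 CPM in WT 1, 2 and 3. WT 1 and WT 2 were above all SAKI libraries, but WT 3 lay below SAKI 1 and SAKI 2. The means were 3.59 ± 0.472 CPM in SAKI and 4.92 ± 1.16 CPM in WT (SD, n = 3 each). The log2 fold change was -0.45 ± 0.26 (SE) with an adjusted p of 0.376 by edgeR's quasi-likelihood test, and -0.38 ± 0.28 with an adjusted p of 0.372 without WT 2. Melanocytes and mammary epithelium also use Sox10, and of 8 melanocyte genes 1, Mitf, was expressed highly enough to be tested. The summed melanocyte list was 25.0 to 28.0 CPM in SAKI and 21.1 to 40.9 CPM in WT, with WT 1 and WT 3 highest, and its part in the Sox10 values was not tested.

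Ngfr lies on the minus strand of chromosome 11 (chr11:95568818-95587735). It had 3.32, 2.72 and 2.43 CPM in SAKI 1, 2 and 3, against 6.01, 2.92 and 4.65 CPM in WT 1, 2 and 3. WT 1 and WT 3 were the highest libraries, while WT 2 lay among the SAKI libraries. The log2 fold change was -0.68 ± 0.32 (SE), with an unadjusted p of 0.0665 and an adjusted p of 0.297 by edgeR's quasi-likelihood test. Without WT 2 the log2 fold change was -0.92 ± 0.25 and the adjusted p 0.0537, where 16.6% of genes passed. Without WT 1 they were -0.43 ± 0.31 and 0.521 in the same edgeR test. The p75 receptor is also carried by stromal and perivascular cells, and 12 markers of smooth muscle and pericytes summed to 1110 to 1334 CPM in SAKI and 1504 to 1754 CPM in WT, without overlap. Of these 12 markers 11 had a log2 fold change below 0, none was at 0 counts, and their part in the Ngfr values was not tested.

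S100b lies on the plus strand of chromosome 10 (chr10:76253853-76261159), inside the span of Dip2a on the opposite strand but apart from its exons. It had 9.32, 11.1 and 8.74 CPM in SAKI 1, 2 and 3, against 7.18, 7.07 and 16.2 CPM in WT 1, 2 and 3. WT 3 was far above every other library, and WT 1 and WT 2 were below all SAKI libraries. The log2 fold change was therefore -0.06 ± 0.34 (SE) with an adjusted p of 0.935 by edgeR's quasi-likelihood test, and its sign rested on WT 3, without which it was 0.44 ± 0.18 with an adjusted p of 0.394. Without WT 2 it was -0.26 ± 0.34 with an adjusted p of 0.616 in the same edgeR test. The direction also turned in limma-voom, in the FPKM fits and with a replicate block, at values no larger than 0.07, so no direction was readable for S100b.

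Th lies on the minus strand of chromosome 7 (chr7:142892752-142931128). It had 0 counts in every SAKI library and in WT 1 and WT 2, and 2 counts in WT 3. A count of 0 allows up to 3 counts, or 0.155 to 0.196 CPM at the depth of these libraries, and counting error alone is covered by this limit. Th did not pass the filter and was not tested. Of other noradrenergic transcripts, Dbh, which makes noradrenaline from dopamine, and Npy, the co-transmitter neuropeptide Y, were at 0 in all 6 libraries, and the noradrenaline transporter Slc6a2 had 5, 8 and 7 counts in SAKI 1, 2 and 3, against 11, 8 and 3 counts in WT 1, 2 and 3. At this depth no difference in Th was detectable in either direction.

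Over all 15400 genes tested, 5 passed an adjusted p of 0.05 (0.0325%), of which 3 were higher (0.0195%) and 2 lower (0.013%) in SAKI, and 0 of the 7 genes tested here were among them. At an unadjusted p under 0.05, 2 of the 7, Mal and Prx, were higher in SAKI, where 8.36% of all genes were, and 0 were lower, where 9.99% of all genes were. Mal alone had SAKI libraries that all lay above the WT libraries, as did 13% of all genes, and 0 of the 7 had SAKI libraries that all lay below, as did 12.4% of all genes. All 7 had at least 23 counts in every library, so none passed the filter through 1 group alone. With DESeq2 or without WT 2 in edgeR, 1 of the 7, Mal, passed.

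The set holds genes of the myelin sheath and genes shared by all Schwann cells or kept in those without myelin, and these were set against each other within each library. The mean log2 CPM of Mal, Mbp, Prx and Mag was 4.33, 4.34 and 4.11 in SAKI 1, 2 and 3, against 3.84, 3.90 and 3.57 in WT 1, 2 and 3. The mean log2 CPM of Sox10, S100b and Ngfr was 2.35, 2.32 and 2.06 in SAKI 1, 2 and 3, against 2.68, 2.30 and 2.73 in WT 1, 2 and 3. The myelin mean was above every WT value in all SAKI libraries, whereas the other mean overlapped between the groups, with SAKI 1 and SAKI 2 just above WT 2. The difference of these means was 2.02 ± 0.04 in SAKI and 1.20 ± 0.38 in WT (SD, n = 3 each). It was 1.98 to 2.05 in SAKI and 0.85 to 1.59 in WT, so the SAKI libraries lay close together and WT 2 was the nearest WT library to them. The mean fitted log2 fold change of the 4 myelin genes exceeded that of the other 3 by 0.89, by 0.69 to 1.09 when 1 library at a time was left out, and by 0.52 on log2(FPKM + 1) without a filter. This excess was given no p, since the genes were chosen with results of these data known. It also holds for these genes only. Of 16 further Schwann lineage genes tested, 12 had a log2 fold change above 0, with a median of 0.32. The median of 23 further myelin genes tested was 0.49.

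Ratios of CPM within a library set single genes of both kinds against each other. Mal over Sox10 was 4.43, 5.39 and 4.97 in SAKI 1, 2 and 3, against 1.51, 2.05 and 2.22 in WT 1, 2 and 3. Prx over Sox10 was 10.3, 10.3 and 9.64 in SAKI, against 4.64, 5.61 and 6.38 in WT in the same order of mice. The groups overlapped for neither ratio, nor for Mbp over Sox10, at 20.5 to 25.3 in SAKI and 12.0 to 18.2 in WT. Mag over Sox10 was separate too, at 0.525 to 0.831 in SAKI and 0.383 to 0.418 in WT. All of these ratios share the denominator Sox10, with 55 to 94 counts a library and a lower mean in SAKI. They are therefore not separate results. Mbp, Prx and Mag on their own overlapped between the groups. The share of all genes whose ratio to Sox10 is separate was not counted. Against Ngfr in place of Sox10, Mal stood at 5.22 to 7.57 in SAKI and 1.45 to 3.78 in WT, and Prx at 12.1 to 14.5 in SAKI and 4.45 to 10.4 in WT, again without overlap and with WT 2 highest in its group. Against S100b the groups were separate for Mal, at 1.73 to 1.86 in SAKI and 0.494 to 1.56 in WT, and overlapped for the other myelin genes. Mbp over S100b was 8.41 to 8.73 in SAKI and 4.04 to 10.6 in WT, Prx over S100b was 3.37 to 4.33 in SAKI and 1.42 to 4.28 in WT, and Mag over S100b was 0.181 to 0.294 in SAKI and 0.0931 to 0.308 in WT. A ratio shows unequal change of its terms and does not tell which of them moved.

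**Figure D2:**
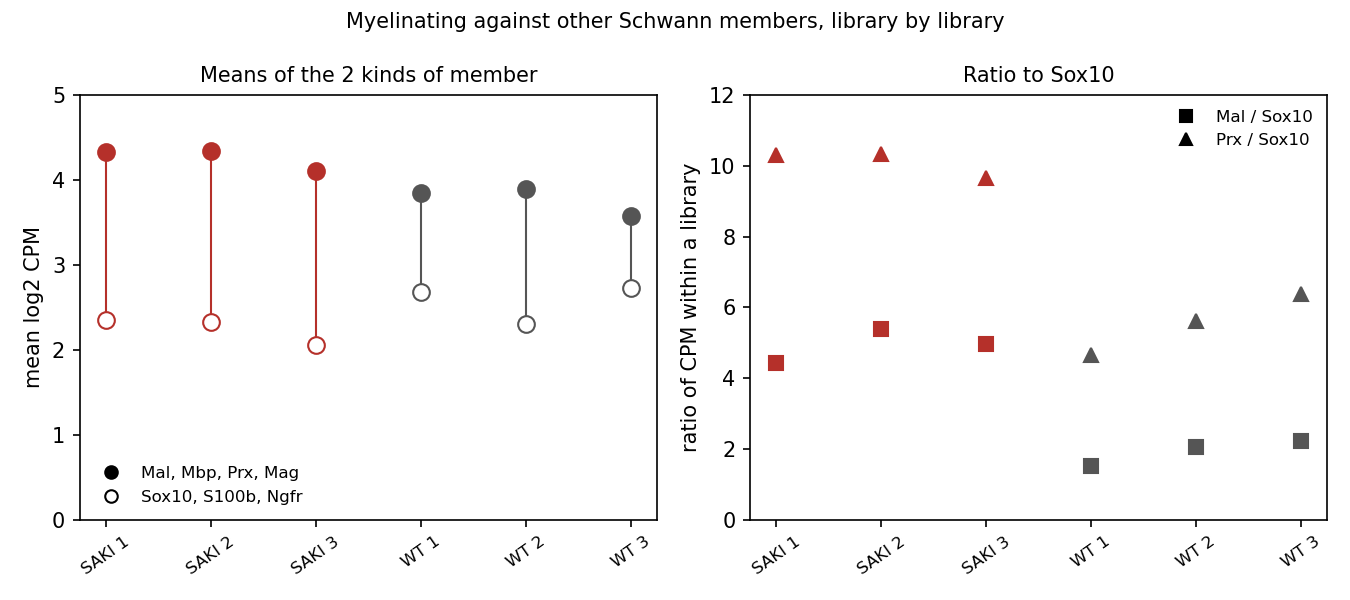
Left, mean log2 CPM of Mal, Mbp, Prx and Mag (filled) and of Sox10, S100b and Ngfr (open) in each library, joined by a line; right, the within-library CPM ratios of Mal and Prx to Sox10, with SAKI in red left of WT in grey. The filled and open points are 1.98 to 2.05 apart in SAKI and 0.85 to 1.59 apart in WT, and both ratios are higher in every SAKI library.

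The rest of the myelin program was read from 27 further myelin genes, of which 23 were tested. None passed an adjusted p of 0.05. Of the 23, 18 had a log2 fold change above 0 and 5 below, with a median of 0.49 beside -0.0035 over all genes tested. At an unadjusted p under 0.05, 10 were higher in SAKI and 0 lower, where 8.36% and 9.99% of all genes were. In 13 the SAKI libraries all lay above the WT libraries and in 1 all below, where 13% and 12.4% of all genes did. The summed level of the 27 genes was 650, 671 and 586 CPM in SAKI 1, 2 and 3, against 420, 565 and 346 CPM in WT 1, 2 and 3, so that WT 2 was again the closest to SAKI. With Mal, Mbp, Prx and Mag included, 12 of 27 genes tested were higher at an unadjusted p under 0.05, beside 8.36% of all genes, and 17 of 28 were so without WT 2, beside 17% of all genes. That count was 4 without SAKI 1, 4 without SAKI 2 and 6 without WT 3, fits for which the share of all genes was not taken.

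Drp2, which binds periaxin at the dystroglycan complex, had 17.5, 17.3 and 10.5 CPM in SAKI 1, 2 and 3, against 9.14, 9.21 and 6.35 CPM in WT 1, 2 and 3. Its log2 fold change was 0.87 ± 0.26 (SE) with an adjusted p of 0.191 by edgeR's quasi-likelihood test, and its groups did not overlap. Pmp2, a fatty-acid-binding protein of peripheral myelin, was near the limit of counting, with 14, 23 and 13 counts in SAKI 1, 2 and 3, against 4, 0 and 5 counts in WT 1, 2 and 3. Without WT 2 the log2 fold change of Drp2 was 0.96 ± 0.29 with an adjusted p of 0.0681 by edgeR's quasi-likelihood test. Of the 28 myelin genes then tested 6 passed, beside 16.6% of all genes.

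Pmp22, the peripheral myelin protein whose gene dosage underlies inherited neuropathy and which fibroblasts also make, had 206, 216 and 179 CPM in SAKI 1, 2 and 3, against 116, 214 and 91.2 CPM in WT 1, 2 and 3. WT 2 lay among the SAKI libraries for Pmp22, and the log2 fold change was 0.51 ± 0.30 (SE) with an adjusted p of 0.399 by edgeR's quasi-likelihood test, and 0.95 ± 0.14 with an adjusted p of 0.0128 without WT 2. Egr2, the factor that drives myelination, had 9.19, 6.98 and 6.36 CPM in SAKI 1, 2 and 3, against 5.71, 6.48 and 13.4 CPM in WT 1, 2 and 3, and is named beside the rule because Sox10 and Egr2 act together. Its highest library was WT 3, and Egr2 is also an immediate early gene of many cell types.

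**Figure D3:**
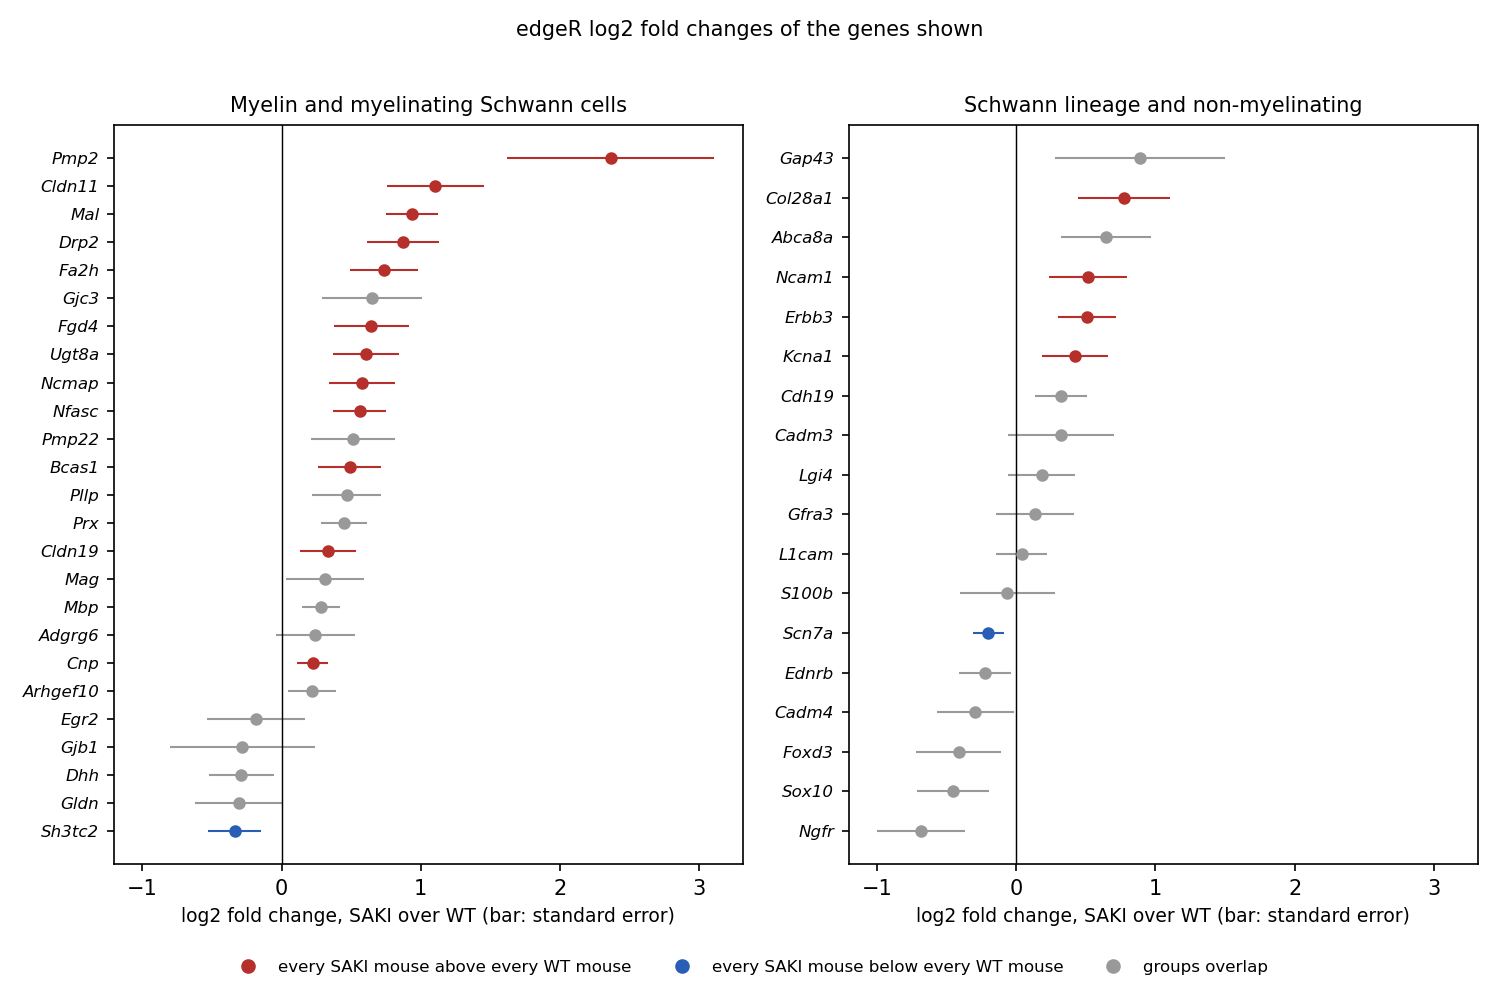
edgeR log2 fold changes, SAKI over WT, with standard errors, of 25 of the 27 tested myelin genes (left) and 18 of the 19 tested Schwann lineage genes (right), sorted within each panel; red marks SAKI libraries all above WT, blue all below and grey overlap. Of the myelin genes shown 20 lie above 0 and 5 below, and of the Schwann lineage genes shown 11 lie above 0 and 7 below, with Ngfr and Sox10 at the bottom.

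Most tested genes of the Schwann lineage and of Schwann cells without myelin had a log2 fold change above 0. Of 19 such genes other than Sox10, S100b and Ngfr, 16 were tested, 12 had a log2 fold change above 0 and 4 below, and the median was 0.32. At an unadjusted p under 0.05, 2 were higher and 0 lower, beside 8.36% and 9.99% of all genes, and in 5 the SAKI libraries all lay above WT and in 1 all below, beside 13% and 12.4% of all genes. Erbb3, the receptor through which neuregulin of the axon reaches Schwann cells, was among the 2. It had 9.13, 8.21 and 7.65 CPM in SAKI 1, 2 and 3, against 5.09, 7.33 and 5.11 CPM in WT 1, 2 and 3, without overlap and with WT 2 nearest to SAKI. Its log2 fold change was 0.51 ± 0.21 (SE) with an adjusted p of 0.265 by edgeR's quasi-likelihood test. Col28a1, a collagen of the Schwann cell basement membrane, had 25.2, 24.5 and 24.1 CPM in SAKI 1, 2 and 3, against 10.5, 23.1 and 9.62 CPM in WT 1, 2 and 3, with WT 2 close to SAKI. Its adjusted p was 0.274 by edgeR's quasi-likelihood test. Without WT 2 the log2 fold change was 0.71 ± 0.17 for Erbb3 and 1.29 ± 0.12 for Col28a1, with adjusted p of 0.0416 and 0.00344 in the same edgeR test. Of the 19 genes tested, Sox10, S100b and Ngfr included, 4 then passed, beside 16.6% of all genes. Sox10 and Ngfr thus lay below 0 in a list whose median was above it, and no difference between the members of the list was tested.

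Sympathetic and axonal transcripts gave no common direction. Of 17 sympathetic genes including Th, 9 were tested, 4 with a log2 fold change above 0 and 5 below, and the median was -0.02. Cyb561, a cytochrome of secretory vesicles that many cells use, had the smallest p, with 11.5, 17.4 and 14.0 CPM in SAKI 1, 2 and 3, against 22.1, 17.5 and 20.7 CPM in WT 1, 2 and 3, a log2 fold change of -0.49 ± 0.19 (SE) and an adjusted p of 0.243 by edgeR's quasi-likelihood test. Its groups were just separate, SAKI 2 and WT 2 being nearly equal. Slc18a2, the vesicular monoamine transporter, which mast cells also carry, Gata3 and Maoa overlapped between the groups. Of 19 general axon and neuron genes, 10 were tested and 6 lay above 0 and 4 below, with Tac1 and Scn10a at 0 in all libraries. Syp, the synaptic vesicle protein synaptophysin, had 9.13, 12.8 and 10.5 CPM in SAKI 1, 2 and 3, against 25.6, 14.4 and 23.4 CPM in WT 1, 2 and 3. Every SAKI library of Syp was below every WT library, with an adjusted p of 0.173 by edgeR's quasi-likelihood test. Rtn1, a reticulon of neuroendocrine and some myeloid cells, had 6.19, 9.64 and 9.25 CPM in SAKI 1, 2 and 3, against 5.58, 4.73 and 4.84 CPM in WT 1, 2 and 3, and lay the other way, with an adjusted p of 0.200 by edgeR's quasi-likelihood test. Calca, the precursor of calcitonin gene-related peptide of sensory axons, had 5, 11 and 8 counts in SAKI 1, 2 and 3, against 15, 16 and 25 counts in WT 1, 2 and 3, with an adjusted p of 0.210 by edgeR's quasi-likelihood test. Gap43, a growth cone protein, overlapped between the groups. Without WT 2, 0 of 9 sympathetic genes and 1 of 10 axon genes passed an adjusted p of 0.05, beside 16.6% of all genes. The 1 was Syp, with a log2 fold change of -1.18 ± 0.17 and an adjusted p of 0.0109 by edgeR's quasi-likelihood test.

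Factors that act on nerve, their receptors and related genes were read as a list that includes Ngfr and S100b. Of 25 such genes 19 were tested, 8 with a log2 fold change above 0 and 11 below, with a median of -0.13, and 1 was higher and 4 lower at an unadjusted p under 0.05, beside 8.36% and 9.99% of all genes. The 1 that was higher is Erbb3, counted above in the Schwann lineage list. Ngfr and S100b are among the 11 below 0. Ret, the receptor of the GDNF family ligands, had 9.26, 8.92 and 10.2 CPM in SAKI 1, 2 and 3, against 25.2, 17.4 and 28.3 CPM in WT 1, 2 and 3. Its groups were far apart, with a log2 fold change of -1.32 ± 0.20 (SE) and an adjusted p of 0.148 by edgeR's quasi-likelihood test. Clstn3 encodes calsyntenin-3, which has a neuronal and an adipose form that gene-level counts cannot separate. It had 10.1, 6.73 and 9.10 CPM in SAKI 1, 2 and 3, against 15.9, 13.4 and 32.9 CPM in WT 1, 2 and 3. All SAKI libraries of Clstn3 were below WT, and the adjusted p was 0.188 by edgeR's quasi-likelihood test. Ntf3, a neurotrophin, did not overlap between the groups either, at 1.34 to 2.26 CPM in SAKI and 2.59 to 3.07 CPM in WT, with an adjusted p of 0.265 by edgeR's quasi-likelihood test. Erbb2, the partner of Erbb3, overlapped between the groups. Without WT 2 the log2 fold change was -1.49 ± 0.13 for Ret and -1.49 ± 0.33 for Clstn3, with adjusted p of 0.00323 and 0.0315 by edgeR's quasi-likelihood test. Of the 21 genes then tested 4 passed, beside 16.6% of all genes.

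The nerve sheath, whose perineurial cells wrap each bundle of fibres, held genes of both directions. Of 10 sheath genes 9 were tested, 6 above 0 and 3 below. Cldn1, the tight junction protein of the perineurium and of epithelia, had 12.9, 14.9 and 12.5 CPM in SAKI 1, 2 and 3, against 7.18, 7.85 and 4.71 CPM in WT 1, 2 and 3, without overlap. Its log2 fold change was 1.03 ± 0.22 (SE) with an adjusted p of 0.157 by edgeR's quasi-likelihood test. Sox9, found in endoneurial fibroblasts among other cells, had 7, 5 and 8 counts in SAKI 1, 2 and 3, against 25, 13 and 27 counts in WT 1, 2 and 3, again without overlap, with an adjusted p of 0.163 by edgeR's quasi-likelihood test. Etv1 and Itgb4 overlapped between the groups. Without WT 2 the log2 fold change was 1.17 ± 0.22 for Cldn1 and -2.03 ± 0.34 for Sox9, with adjusted p of 0.0210 and 0.0161 by edgeR's quasi-likelihood test. Of 9 sheath genes 3 then passed, beside 16.6% of all genes.

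Summed markers of other cell types were separate between the groups for T cells, endothelium and, only just, macrophages. The sums overlapped for mature adipocytes and skeletal muscle. No gene of these lists passed the adjusted p threshold in edgeR's quasi-likelihood test on all libraries. The sum of 16 T cell markers, none of them at 0 counts, was 913.5 to 1063 CPM in SAKI. In WT 1, 2 and 3 it was 747, 459 and 601 CPM. All 16 had a log2 fold change above 0. Mal is also a T cell gene, and both Mal and the T cell sum were higher in every SAKI library than in every WT library. The sum of 13 macrophage markers, none at 0, was 2682 to 3210 CPM in SAKI and 1141 to 2664 CPM in WT, with 11 above 0 and 2 below, and WT 2 was by far the highest of its group. Markers of mature adipocytes, 12 of them and none at 0, summed to 24001 to 26984 CPM in SAKI and 26270 to 35120 CPM in WT. All 12 had a log2 fold change below 0. The 13 endothelial markers, none at 0, summed to 1502 to 1623 CPM in SAKI and 1740 to 2020 CPM in WT. Of these 13, 4 had a log2 fold change above 0 and 9 below, with a median of -0.19. Skeletal muscle is a tissue with myelinated motor nerve. Its 15 markers summed to 515 to 3469 CPM in SAKI and 659 to 6789 CPM in WT. Of these 15, 5 had a log2 fold change above 0 and 10 below. The part of these cell types in the values of the myelin genes was not tested.

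**Figure D4:**
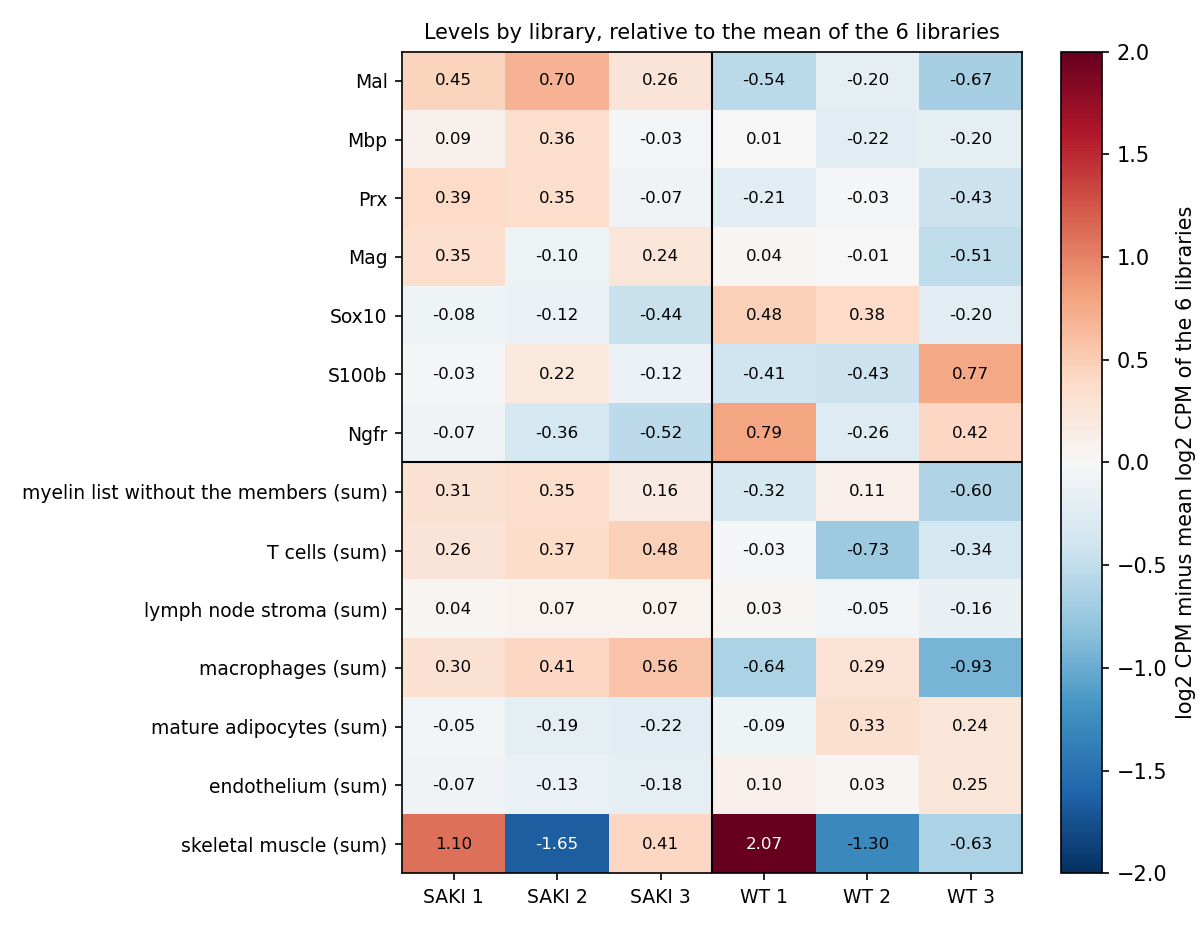
log2 CPM of each gene or summed marker list in each library minus its mean over the 6 libraries, SAKI left of WT, with Mal to Ngfr above the line and lists below it. Mal runs from 0.26 to 0.70 in SAKI and from -0.67 to -0.20 in WT. The T cell sum runs from 0.26 to 0.48 in SAKI and from -0.73 to -0.03 in WT. The macrophage sum runs from 0.30 to 0.56 in SAKI and from -0.93 to 0.29 in WT.

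The genes whose pattern was most like that of the 4 myelin genes were sought by Pearson's r over the 6 libraries among 14552 genes with a mean of at least 1 CPM. The 5 nearest to the mean of Mal, Mbp, Prx and Mag were Chm with r = 0.996, Cnot2 with r = 0.995, Zfp398 with r = 0.992, Rbbp6 with r = 0.992 and Gabbr1 with r = 0.991. The 5 nearest to the mean of Sox10, S100b and Ngfr were Ptbp2 with r = 0.996, Uchl4 with r = 0.993, Btc with r = 0.993, Mrpl40 with r = 0.990 and Naa30 with r = 0.990. None of the 10 was on the myelin or Schwann lists. With 6 libraries in 2 groups, and so many genes searched, such values describe likeness of pattern in these libraries alone.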

How the data were processed

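RNA from IngWAT of 3 SAKI and 3 WT mice was enriched for mRNA with beads and sequenced. The authors deposited raw counts per gene for each library and a table of FPKM values for all libraries. GRCm38, StringTie 1.3.0, HISAT2 2.0.4 and Bowtie2 2.2.6 appear in the submitters' processing notes, which give no roles. How counts were made (tool, annotation release, strand setting) is not given in the sources used here, and overlapping genes on opposite strands may therefore share reads.

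Groups were taken from the sample titles, which name each library as a separate mouse. Counts of all 34745 genes, 12227 of them at 0 throughout, were analysed in R 4.3.3 with edgeR 4.0.16: low genes were dropped with filterByExpr (count 10, total 15), libraries were scaled by TMM, and genotype was the model's only term, followed by the quasi-likelihood test and Benjamini-Hochberg adjustment over the 15400 genes tested, with a threshold of 0.05. The biological coefficient of variation was 23.3%. The exact two-sided permutation test was run on log2 CPM of single genes with a prior count of 2. The fit was tested on simulated counts with known changes. Depth was 15354161 to 18787036 counts, so that 3 counts equal 0.155 to 0.196 CPM. No pair of libraries agreed within sampling noise, with chi-square over degrees of freedom from 13.6 to 99.4.

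The genes named were all 8 members, the up to 4 genes of smallest p in each of 6 nerve lists (myelin, Schwann lineage, sympathetic, axon, neurotrophic, nerve sheath), Pmp22 and Slc35d3 whatever their values, and the 5 genes of most similar pattern to each kind of member. Results for some single genes that this rule names are not reported here. Dbh, Npy, Slc6a2, Egr2, Mitf, Tac1 and Scn10a were named after their values were seen. Members, lists and alternatives were chosen with earlier results of these data known. Alternatives were RLE and upper-quartile factors, DESeq2 1.42.0, limma-voom (limma 3.58.1), no low-count filter, a mean of at least 1 CPM, a replicate block, each library left out, and limma with a trend on log2(FPKM + 1) or log2(FPKM + 0.1) (12433 genes reaching 1 FPKM in 3 libraries), or with no filter. The counts of the myelin and Schwann lineage lists under these alternatives, the values of other listed genes without WT 2 and the ratios to S100b were added after the data were seen. Promoter windows and gene starts are from RefSeq. Other gene lists read from the files were immediate early genes, B cells, lymph node stroma, fibroblasts and epithelium.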

Additional observations from a re-analysis of the deposited data

How the results depend on the processing

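The count of genes called, 5 in edgeR, was 728 with DESeq2, 8 without the low-count filter, 9 on FPKM with a pseudocount of 1 and 9 with a pseudocount of 0.1, and 1 to 2598 when 1 library was left out, the highest without WT 2. The count of members called, 0 in edgeR, was 1 with DESeq2 and 0 to 1 when 1 library was left out, the 1 being Mal without WT 2. The excess of Mal, Mbp, Prx and Mag over Sox10, S100b and Ngfr, 0.89, was 0.69 to 1.09 with 1 library left out. It was 0.52 on FPKM without a filter, where a pseudocount of 1 understates low genes. It could not be had on filtered FPKM, since Mag and Ngfr fell below that filter. The 12 myelin genes higher at an unadjusted p under 0.05 became 4 on FPKM with either pseudocount, where fewer genes pass, and 4 to 17 with 1 library left out. The 2 Schwann lineage genes became 1 with RLE factors, 0 at a mean of at least 1 CPM and 0 to 7 with 1 library left out, 7 without WT 2. For both lists the share of all genes at that p was taken only in the main fit and without WT 2. The cause of the changes with DESeq2 and without WT 2 was not tested.

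The log2 fold change of S100b, -0.06, turned in direction to 0.043 with limma-voom, 0.038 with the replicate block, 0.048 on FPKM with a pseudocount of 1, 0.065 with a pseudocount of 0.1, 0.048 on FPKM without a filter, and from -0.26 to 0.44 with 1 library left out, being 0.01 without SAKI 3 and 0.44 without WT 3. The 6 other members tested kept their sign in every alternative that gave a value: Mbp ran between 0.14 and 0.37, Prx between 0.29 and 0.58, Mag between 0.08 and 0.41, Sox10 between -0.64 and -0.26 and Ngfr between -0.92 and -0.32. The replicate numbers did not pair the mice: deviations from the group means correlated at 0.04, 0.04 and 0.09 between libraries of the same number. With the replicate block 1 gene was called in all, 0 members were, and the excess of myelin genes was 0.84. Other scalings moved the median of all genes by no more than 0.04. Counts of 23 to 49 for Mag and 42 to 98 for Ngfr limit those values by depth.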

Other observations

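Among the lists of other cells and states, 14 of 15 immediate early genes had a log2 fold change below 0, with a median of -0.70. They summed to 412 to 534 CPM in SAKI and 523 to 938 CPM in WT, highest in WT 3. Egr2, itself 1 of these 15 genes, and S100b were also highest in WT 3. All 12 B cell markers lay above 0 with a median of 0.25, at 1619 to 1920 CPM in SAKI and 1157 to 1814 CPM in WT. Markers of lymph node stroma were 7 above 0 and 3 below over 10 tested, at 1173 to 1205 CPM in SAKI and 1028 to 1168 CPM in WT, and 3 of their entries were at 0 in all libraries. Of 12 fibroblast and progenitor markers 8 lay above 0 and 4 below, at 19058 to 20415 CPM in SAKI and 14016 to 24470 CPM in WT. Of 14 genes of skin and mammary epithelium 3 were tested, all below 0, and the list summed to 5.02 to 9.83 CPM in SAKI and 3.76 to 23.8 CPM in WT. No gene of these lists passed an adjusted p of 0.05 in edgeR's quasi-likelihood test.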
